A study of Mus with 48 samples.

Results

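Maoa, Maob, Aldh2, Slc22a3, Slc29a4, Fmo1, Fmo2 and Cyp2d22 are 8 genes that break down monoamines or handle the neurotoxin MPTP. They were found by name, each once, among the 23366 gene names of an RNA-seq table of mouse brain, and were chosen for what their proteins do. The study asked how treadmill exercise changes gene expression in 4 brain regions of a mouse model of Parkinson's disease made with MPTP. The mice were female C57BL/6J, bought at 8 weeks of age. Saline mice got no MPTP, MPTP mice got 10 doses of 25 mg/kg under the skin together with probenecid, and MPTP + EX mice got the same doses and then ran for 12 weeks, 5 days a week and 40 min a day, at up to 15 m/min. Substantia nigra (SN), striatum, cortex and cerebellum were taken from 12 mice, 4 in each group, named S1 to S4 (saline), M6, M16, M21 and M23 (MPTP) and E26 to E29 (MPTP + EX), which gave 48 libraries. MPTP was given before the weeks of exercise, so the libraries show the brain long after the toxin and not during exposure.

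Monoamine oxidases in the outer mitochondrial membrane deaminate dopamine, serotonin and noradrenaline to aldehydes. Maob, found mainly in astrocytes and serotonergic neurons, also turns MPTP into the precursor of MPP+, the toxic cation that enters dopaminergic neurons through the dopamine transporter. Maoa is the form that catecholaminergic neurons carry. Aldh2 is the mitochondrial dehydrogenase that clears the aldehydes. Slc22a3 (OCT3) and Slc29a4 (PMAT) are low-affinity carriers of monoamines and of MPP+. Fmo1 and Fmo2 are flavin monooxygenases, a family that oxidizes nitrogen and sulfur in foreign compounds, and Cyp2d22 is a cytochrome P450 of the mouse Cyp2d family, to which human CYP2D6 belongs.

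Values are FPKM, reads per gene length and library size, and FPKM column sums were 344700 to 403520 in 47 libraries. Read depth is unknown, but the steps between low values gave depths that differed by 1.29-fold to 1.57-fold among the libraries of a region. The striatum library of mouse E29 (E29Stria) stood apart, with a column sum of 621093, 11595 genes above 1 FPKM against 12809 to 13593 elsewhere, and 17.5 FPKM of the nuclear RNA Malat1 against 148 to 363. In that library all 8 members lay outside the range of the other 11 striatum libraries. Maoa was 2.65 FPKM there against 6.36 to 7.71 in the others, Maob 4.67 against 9.39 to 13.5, Slc29a4 21.4 against 2.43 to 12.1 and Fmo2 0.0554 against 0.740 to 3.74. It was therefore left out of every fit below unless it is named. The regions matched their labels by marker sums. Medium spiny neuron markers were 2973 to 4509 FPKM in the striatum and at most 387 elsewhere, cerebellar neuron markers were at least 2710 in the cerebellum and at most 589 elsewhere, and dopaminergic markers were 701 to 1481 in saline SN and at most 107 in the other regions of saline mice.

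**Figure D1:**
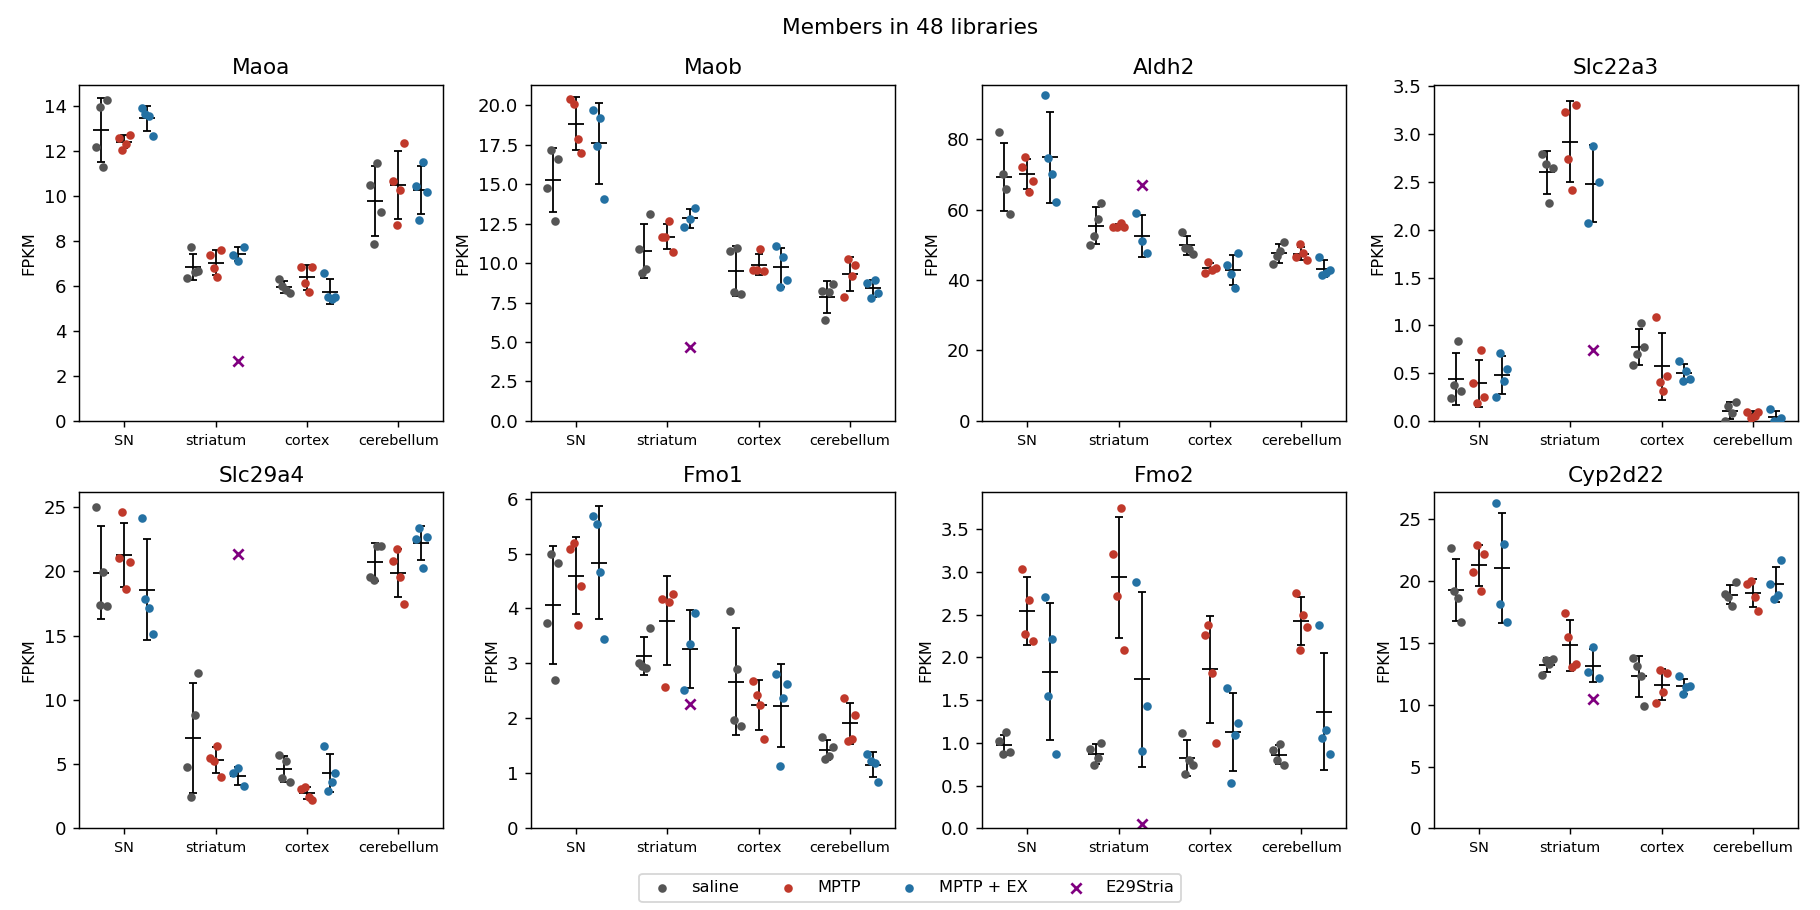
FPKM of each member (vertical axis) in the SN, striatum, cortex and cerebellum, with 1 point for each library and group mean ± SD in black. Slc22a3 was 2.07 to 3.31 FPKM in the striatum and at most 1.09 in the other regions, and the cross marks E29Stria, which was kept out of means.

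The first comparison set the regions of saline mice against each other, with each mouse as a block. The SN held the most mRNA of both oxidases. Maoa was 12.9 ± 1.42 FPKM (SD, n = 4) in SN, 9.77 in cerebellum, 6.84 in striatum and 5.95 in cortex, and its order of regions left only striatum and cortex without a difference past the threshold. Maob was 15.3 ± 2.022 in SN, 10.8 in striatum, 9.49 in cortex and 7.86 in cerebellum, where neither striatum and cortex (adjusted p = 0.338) nor cortex and cerebellum (adjusted p = 0.114) differed past the threshold by limma. By limma on log2(FPKM + 1), with p adjusted over all genes and a threshold of 0.05, SN exceeded striatum by 0.83 ± 0.11 (log2 fold change ± SE) for Maoa, adjusted p = 2.85e-05, and cortex by 0.64 ± 0.13 for Maob, adjusted p = 0.000759.

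Aldh2 was the most abundant member in every region, at 69.2 ± 9.72 FPKM (SD, n = 4) in saline SN, 55.4 in striatum, 49.8 in cortex and 47.6 in cerebellum. SN was higher than each of the other regions. Cyp2d22 had 2 levels, 19.3 in SN and 18.9 in cerebellum against 13.2 in striatum and 12.3 in cortex. Slc29a4 followed the same division with a wider gap, 19.9 in SN and 20.7 in cerebellum against 7.02 in striatum and 4.60 in cortex. SN exceeded cortex by 1.90 ± 0.27 for Slc29a4, adjusted p = 4.78e-05. Fmo1 ran the other way in the cerebellum, which had the least, 1.43 FPKM against 4.06 in SN, a difference of 1.04 ± 0.17 with adjusted p = 0.000159.

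Of the 6 members tested, 6 differed between SN and cortex and 5 between SN and striatum (all but Fmo1), all higher in SN. These shares stand beside 59.9% and 57.5% of all genes tested. SN exceeded cerebellum for 4 members (Maoa, Maob, Aldh2 and Fmo1), where 66.8% of genes differed. Striatum and cortex differed for 0 members, where 35.5% of genes differed, and all 6 had an unadjusted p above 0.05. Striatum differed from cerebellum for 5 members, higher for Maob and Fmo1 and lower for Maoa, Slc29a4 and Cyp2d22, where 64.9% of genes differed. Cortex differed from cerebellum for 4 (Fmo1 higher, Maoa, Slc29a4 and Cyp2d22 lower), again beside 66.8%. The calls between SN and striatum fell to 3 without mouse S2, when Maob and Aldh2 no longer passed, and those between striatum and cortex rose to 2 without S1. Aldh2 in SN vs. striatum was also lost without S1, Maoa in SN vs. cerebellum and Fmo1 in SN vs. cortex without S2 or S4, and Fmo1 in cortex vs. cerebellum without S1 or S3. The call of Fmo1 in SN vs. cortex, adjusted p = 0.0313, was also lost with no filter (0.0519), with scaling to a common median (0.0554) and with quantile normalization (0.0554).

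Slc22a3 and Fmo2 had mean FPKM of 1 or less over the saline libraries and were not tested there. Slc22a3 was a striatal mRNA. In saline striatum it was 2.79 FPKM in S1, 2.69 in S2, 2.28 in S3 and 2.65 in S4, and in saline cerebellum 0, 0.153, 0.0798 and 0.203 in the same mice. The ratio of the means was 23.9. Saline cortex had 0.773 and saline SN 0.440, and no saline library of another region reached the striatal values. With no filter on low values its striatum to cortex difference was 1.03 ± 0.11, adjusted p = 3.93e-05. Fmo2 differed little by region in saline mice, with means of 0.824 to 0.976 FPKM.

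Maoa was below Maob in every SN, striatum and cortex library and above it in 11 of 12 cerebellum libraries. The ratio of Maoa to Maob had a median of 0.765 in SN, 0.584 in striatum, 0.629 in cortex and 1.24 in cerebellum, over all 3 groups. The 2 genes are neighbours on the GRCm38.p6 annotation. Their values had a Pearson r of 0.523 over the 47 libraries, which share regions and mice. In SN the ratio was 0.814 to 0.891 in saline, 0.600 to 0.748 in MPTP and 0.705 to 0.899 in MPTP + EX. The saline and MPTP groups did not overlap, and the log2 ratio was −0.56 ± 0.14 in MPTP against −0.22 ± 0.06 in saline (SD, n = 4 each). The two-sided exact permutation p was 0.0286, the smallest that 4 against 4 allows. Adjusted over 12 comparisons it was 0.343, and a single separation of this kind could not have gone lower in this design. No other region had a ratio difference with an exact p under 0.05.

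**Figure D2:**
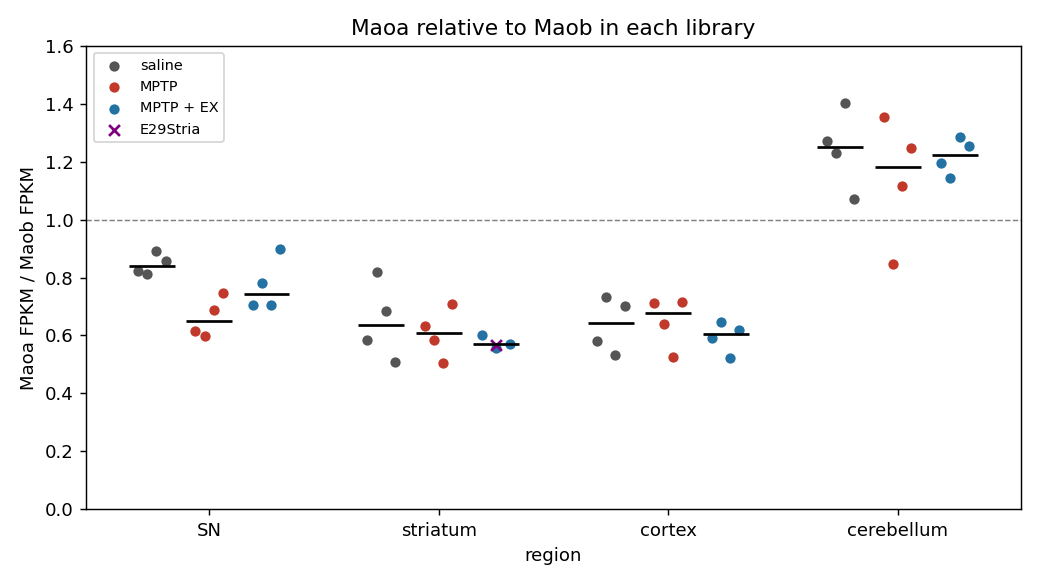
Maoa FPKM divided by Maob FPKM in each library (vertical axis) by region and group, with the group median as a black line and equal levels as the dashed line. The cerebellum lies above the line in 11 of 12 libraries, and in SN the 4 MPTP libraries (0.600 to 0.748) lie below the 4 saline libraries (0.814 to 0.891).

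The second comparison was MPTP vs. saline in each region, with all 3 groups in 1 fit. It called 0 members in SN, striatum, cortex or cerebellum, beside 0.638%, 0.0227%, 0% and 0% of all genes. The members tested were 7, and 8 in the striatum, where Slc22a3 also passed the filter of a mean above 1 FPKM. At an unadjusted p under 0.05 stood Maob and Fmo2 in SN, Fmo2 in striatum, Aldh2, Slc29a4 and Fmo2 in cortex, and Maob and Fmo2 in cerebellum. At that same cut stood 11.3% of all genes in SN, 10.1% in striatum, 20% in cortex and 11.9% in cerebellum. As a check of the toxin, the dopamine transporter Slc6a3, through which MPP+ enters neurons, was 219.5 FPKM in saline SN and 28.9 in MPTP SN. In bulk tissue, fewer cells of a type and less RNA per cell cannot be told apart.

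Fmo2 had the largest log2 difference of the members in all 4 regions. In SN its level was 1.02, 0.866, 1.13 and 0.889 FPKM in S1 to S4, and 2.19, 3.04, 2.27 and 2.67 in M6, M16, M21 and M23. In striatum it was 0.930, 0.740, 0.819 and 0.9998 in the saline mice and 2.08, 3.21, 2.71 and 3.74 in the MPTP mice. In both regions every MPTP library was above every saline library.

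In cortex Fmo2 was 1.12, 0.636, 0.796 and 0.747 FPKM in S1 to S4 and 0.997, 2.26, 2.37 and 1.82 in M6, M16, M21 and M23, so that M6 lay below S1. In cerebellum it was 0.911, 0.805, 0.988 and 0.745 in S1 to S4 and 2.36, 2.76, 2.09 and 2.49 in the MPTP mice, again with no overlap. The log2 fold changes were 0.84 ± 0.18 in SN, 1.06 ± 0.19 in striatum, 0.63 ± 0.18 in cortex and 0.88 ± 0.16 in cerebellum. Adjusted p by limma was 0.0625, 0.206, 0.0995 and 0.165 in that order, and no region passed. Since Fmo2 was under 1 FPKM on average in saline mice of every region, it passed the filter through its MPTP and MPTP + EX libraries.

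With 1 mean response per mouse over the regions, Fmo2 rose in MPTP mice. Each MPTP mouse lay above the saline mean, by 0.60 in M6, 1.02 in M16, 0.84 in M21 and 0.95 in M23 on the log2(FPKM + 1) scale, and the saline mice lay between −0.09 and 0.08. The difference was 0.85 ± 0.14, adjusted p = 0.0333 by limma, higher in 4 of 4 mice. Fmo2 was the 1 member of 7 called, beside 0.574% of all genes. With no filter on low values the adjusted p was 0.0432. The call was lost with E29Stria in the fit (adjusted p = 0.386), and leaving out a mouse gave adjusted p of 0.0506 without M16, 0.121 without M21, 0.0938 without M23, 0.0851 without S1, 0.101 without S2 and 0.096 without S3. Fitting only the saline and MPTP libraries called Fmo2 in SN, adjusted p = 0.00985, striatum, adjusted p = 0.0299, and cerebellum, adjusted p = 0.0386. In cortex it did not pass, adjusted p = 0.0649. Those fits called 10 genes in all in striatum, 365 in cortex and 2 in cerebellum, against 3, 0 and 0 with all 3 groups. In SN the fit with all 3 groups called 86 genes, and the alternatives, this one among them, called 44 to 161.

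**Figure D3:**
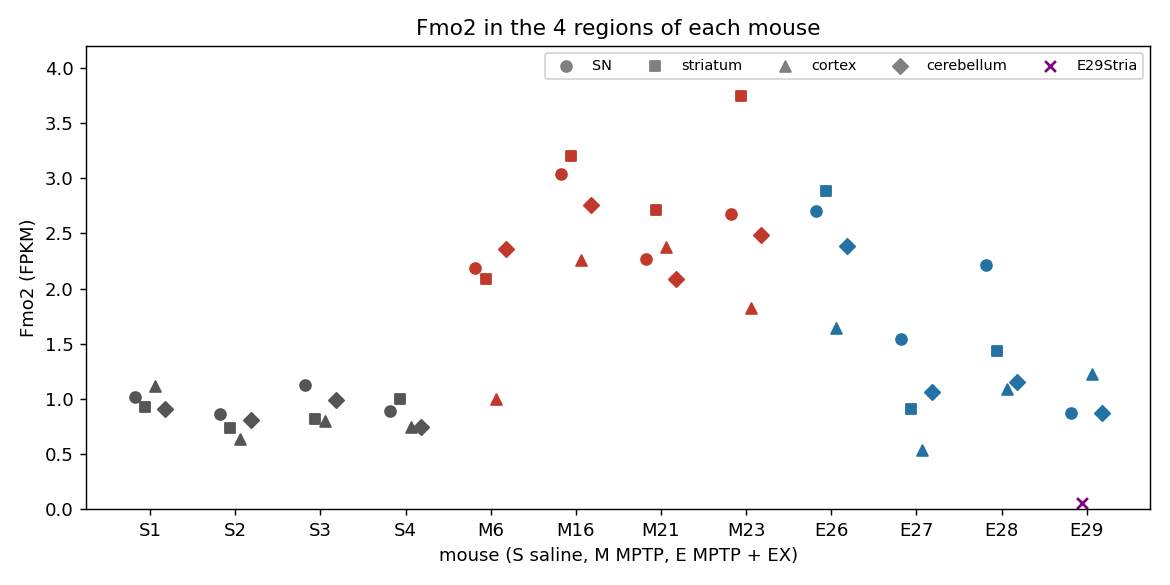
Fmo2 FPKM (vertical axis) in each mouse (horizontal axis), with 1 marker shape for each region and E29Stria as a cross. All saline libraries lie at or under 1.13 FPKM, MPTP mice reach 3.74, and E26 lies within the MPTP range in all 4 regions.

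The summed levels of other lists are given here beside Fmo2. The summed level of 10 glucocorticoid-induced genes, all above 1 FPKM on average in every group, was 824 to 1179 FPKM in saline SN and 1327 to 1866 in MPTP SN. In striatum it was 624 to 804 against 712 to 1060, in cortex 565 to 736 against 601 to 949 and in cerebellum 688 to 959 against 907 to 1550. This sum did not overlap between the groups in SN and overlapped in striatum, cortex and cerebellum. Fmo2 overlapped in cortex alone. Endothelial markers (8 of 8 above 1 FPKM) were 146 to 171 in saline SN and 177 to 200 in MPTP SN, but overlapped between these groups in the other regions. Fibroblast and meningeal markers overlapped in every region, at 832 to 2034 against 1194 to 3033 in SN. The part of these lists in the Fmo2 values was not tested.

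Maob in SN was 14.8, 17.1, 12.7 and 16.6 FPKM in S1 to S4 and 17.0, 20.4, 20.1 and 17.9 in M6, M16, M21 and M23. The groups overlapped by 1 pair, since M6 lay under S2. The log2 fold change was 0.29 ± 0.11, adjusted p = 0.355, and in cerebellum it was 0.22 ± 0.10, adjusted p = 0.393. Over the regions the mean response was 0.17 ± 0.06 with adjusted p = 0.165, and all 4 MPTP mice were above the saline mean in all 4 regions. Summed astrocyte markers in SN, with 10 of 10 above 1 FPKM, were 1562 to 1870 FPKM in saline and 1864 to 2294 in MPTP, and their part was not tested.

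Aldh2 and Slc29a4 were lower in the cortex of MPTP mice without passing the test. Cortical Aldh2 was 53.7, 49.2, 48.8 and 47.4 FPKM in S1 to S4 and 43.3, 42.1, 45.2 and 42.8 in M6, M16, M21 and M23, with a log2 fold change of −0.19 ± 0.07 and adjusted p = 0.131. Cortical Slc29a4 was 5.67, 3.91, 5.21 and 3.61 in the saline mice and 2.24, 3.10, 3.22 and 2.41 in the MPTP mice, −0.57 ± 0.18 with adjusted p = 0.109. Neither gene overlapped between the groups.

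These were 2 of the 7 members tested in cortex, where 14.5% of all genes had groups that did not overlap. Fmo2 was the 1 member without overlap in SN (7.58% of genes), in striatum (5.67%) and in cerebellum (5.93%). Choroid plexus markers in cortex summed to 22.9 to 478 FPKM in saline and 5.37 to 19.8 in MPTP. Of these 8 markers, 5 and 1 were above 1 FPKM, and no defining marker was at 0 throughout. In exercised cortex these markers summed to 7.10 to 38.7, with 1 of 8 above 1 FPKM. Slc29a4 in exercised cortex was 6.395, 2.95, 3.62 and 4.35 FPKM in E26 to E29. In striatum Slc29a4 was 4.76, 2.43, 8.82 and 12.1 in S1 to S4, beside choroid plexus sums of 57.5, 118, 1618 and 2532, and in E29Stria it was 21.4 beside 8555. Beside both genes in cortex, microglia markers (8 of 8 above 1 FPKM) were 205 to 236 FPKM in saline and 165 to 185 in MPTP, and pan-neuronal markers (6 of 6) were 1974 to 2176 in saline and 2253 to 2329 in MPTP, neither with overlap. Astrocyte markers (10 of 10) overlapped, at 1070 to 1363 against 1067 to 1126. The part of these cell types in the Aldh2 and Slc29a4 values was not tested.

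Whether a response differed between regions was tested within mice. For MPTP vs. saline, 0 members passed in SN vs. striatum, SN vs. cortex or SN vs. cerebellum, beside 0.233%, 0.173% and 0.0952% of genes, and 0 in the other 3 pairs, beside 0%. The value nearest the threshold was Slc29a4 in SN minus cortex, 0.67 ± 0.13, adjusted p = 0.0597. Without E29 this fit called 113 genes in all, against 22 in the main fit. Slc29a4 passed without E27 and without E29, mice outside this contrast, so its difference itself did not change. At an unadjusted p under 0.05 stood Slc29a4 alone in SN minus cortex. Under that cut were also Aldh2 and Fmo2 in striatum minus cortex, and Aldh2 and Slc29a4 in cortex minus cerebellum. The shares of all genes under it were 13.1% in SN minus cortex, 15.6% in striatum minus cortex and 10.5% in cortex minus cerebellum. For MPTP + EX vs. MPTP, 0 members passed in the 6 pairs of regions, beside 0% of genes in each, and Slc29a4 in SN minus cortex was −0.68 ± 0.13, adjusted p = 0.351. The others under an unadjusted 0.05 were Fmo2 in SN minus striatum, Maoa in SN minus cortex, and Slc29a4 and Fmo1 in SN minus cerebellum, beside 9.67%, 4.99% and 5.63% of all genes in those 3 pairs.

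**Figure D4:**
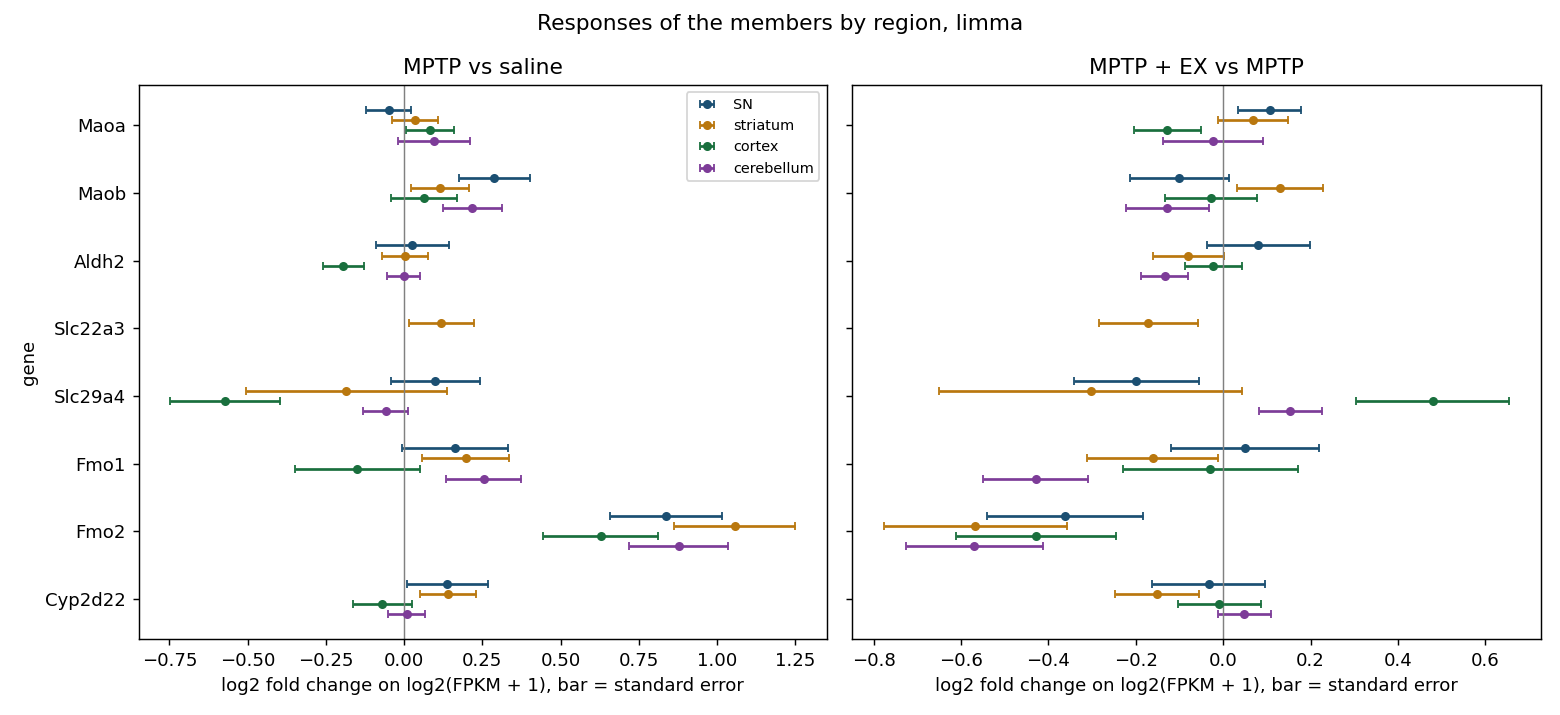
Log2 fold change on the log2(FPKM + 1) scale (horizontal axis) with its standard error for each member and region, for MPTP vs. saline on the left and MPTP + EX vs. MPTP on the right. Fmo2 lies to the right of 0 in all 4 regions on the left panel (0.63 to 1.06) and to the left of 0 in all 4 on the right panel, and no point passed the adjusted threshold.

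The third comparison, MPTP + EX vs. MPTP, asked what exercise added in mice that had all had the toxin. It called 0 members in SN, striatum, cortex or cerebellum, beside 0%, 0.0151%, 0% and 0.0154% of genes. At an unadjusted p under 0.05 stood Fmo2 in striatum, Fmo2 and Slc29a4 in cortex, and Aldh2, Fmo1 and Fmo2 in cerebellum. Of all genes, 7.3% in SN, 10.2% in striatum, 5.73% in cortex and 5.78% in cerebellum were under that cut. Groups did not overlap for 0 members in SN, striatum and cortex, beside 4.74%, 8.56% and 3.27% of genes, and for 1 member, Fmo1, in cerebellum, beside 3.63%. Cerebellar Fmo1 was 2.06, 2.37, 1.59 and 1.62 FPKM in the MPTP mice and 1.36, 1.23, 1.195 and 0.838 in E26 to E29, −0.43 ± 0.12 with adjusted p = 0.701. The exercised mice were all lower than the MPTP mice there, on levels near 1 FPKM.

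Fmo2 in the exercised mice was uneven. In SN it was 2.71, 1.54, 2.213 and 0.873 FPKM in E26 to E29, and in cerebellum 2.38, 1.06, 1.15 and 0.870. In striatum it was 2.88, 0.910 and 1.43 in E26, E27 and E28, and in cortex 1.64, 0.535, 1.09 and 1.23 in E26 to E29. E26 stayed within the MPTP range in all 4 regions, while E27 lay below the lowest MPTP mouse in each region. In striatum the log2 fold change of Fmo2 was −0.57 for MPTP + EX vs. MPTP and 0.49 for MPTP + EX vs. saline, and with E29Stria it was −0.90 and 0.16, of which the last had an unadjusted p of 0.616. The glucocorticoid-induced genes summed to 1035 to 1648 FPKM in exercised SN, 800 to 896 in striatum, 569 to 719 in cortex and 954 to 1163 in cerebellum. The medians of those sums were below those of MPTP mice in each region, with overlap in each. They were 1425 against 1702, 824 against 1029, 673 against 722 and 1040 against 1233. A sum follows its most abundant genes, and Fkbp5 on this list was not lower in exercised SN. There it was 28.3, 20.2, 14.8 and 11.5 FPKM in E26 to E29. In MPTP SN it was 9.72, 11.3, 17.0 and 18.85 in M6, M16, M21 and M23. The part of these genes in the Fmo2 values was not tested.

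The mean response of Fmo2 was −0.51 ± 0.14 for MPTP + EX vs. MPTP, adjusted p = 0.292, beside 0.0246% of genes called and 0 members. Without E26 it was −0.67, adjusted p = 0.0451, with 5 genes called in all. In cerebellum it was then −0.75, adjusted p = 0.0484, with 4 genes called. E26 stood out by Fmo2 itself, so these 2 fits draw on the values they test. In each case 11 of 12 fits that left out a mouse did not pass. Adjusted p reached 0.514 for the mean response and 0.996 in cerebellum. Against saline the mean response was 0.34 ± 0.14, adjusted p = 0.146, where 0 members and 5.99% of genes were called. MPTP + EX vs. saline called 0 members in SN, striatum, cortex or cerebellum, beside 1.02%, 0.00756%, 0% and 0% of genes. At an unadjusted p under 0.05 stood Fmo2 in SN, Maob and Fmo2 in striatum, and Aldh2 in cortex and cerebellum, and Fmo2 alone in the mean response. The shares of all genes under that cut were 15.8% in SN, 10.2% in striatum, 17.1% in cortex, 16.9% in cerebellum and 26.7% in the mean response. Both comparisons with saline share the saline libraries. Aldh2 in cortex was −0.22 ± 0.07 against saline, adjusted p = 0.143. Without E29 its adjusted p was 0.0379, in a fit that called 433 genes against 0 in the main fit. It did not pass in 11 of 12 fits that left out a mouse, with adjusted p up to 0.308.

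Slc22a3 in striatum was 2.60 FPKM in saline, 2.92 in MPTP and 2.48 in 3 MPTP + EX mice, and passed no comparison. In SN, cortex and cerebellum, under the filter, no exact permutation p of Slc22a3 was under 0.05, and the lowest, for MPTP + EX vs. saline in cortex, was 0.0571. Maoa and Cyp2d22 had an unadjusted p above 0.05 for every contrast of treatments within a region.

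The other genes of the pathway were taken from 3 lists, 16 other enzymes of monoamine breakdown, 18 other monoamine and cation transporters and 23 other enzymes of xenobiotic oxidation. In SN, MPTP vs. saline lowered 2 of 14 tested enzymes and 2 of 13 tested transporters and 0 of 11 oxidation enzymes, and raised 0. The list medians were 0.06, 0.13 and 0.16 on the log2 scale, where all genes had 0.02. The genes that fell were the vesicular monoamine transporter Slc18a2 (−2.46 ± 0.19, adjusted p = 5.5e-05), Slc6a3 (−2.84 ± 0.24, adjusted p = 9.98e-05), Aldh1a7 (−1.46 ± 0.21, adjusted p = 0.00592) and Aldh1a1 (−1.14 ± 0.18, adjusted p = 0.0111). Slc18a2, Slc6a3 and Aldh1a1 are also in the list of dopaminergic neuron markers. The same 4 were lower in MPTP + EX vs. saline in SN, and none of the 3 lists had a call in striatum, cortex or cerebellum. In the mean response of MPTP + EX vs. saline, Aldh1a1 (−0.37 ± 0.08, adjusted p = 0.0261) and the cholesterol hydroxylase Cyp46a1 (−0.25 ± 0.06, adjusted p = 0.0296) were lower. That mean for Aldh1a1 includes SN, where it was −1.06 ± 0.18. The main fit of this comparison called 731 genes in all, and with E29Stria in the fit it called 1.

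Aldh1a1, the cytosolic dehydrogenase of dopaminergic neurons that also clears dopamine aldehyde, was 296.9 ± 79.0 FPKM in saline SN and 131 ± 19.1 in MPTP SN (SD, n = 4 each). Aldh2 in SN was 69.2 ± 9.72 and 70.1 ± 4.35, a log2 fold change of 0.03 ± 0.12 with adjusted p = 0.954 by limma. Akr1a1, an aldehyde reductase, was the most abundant other enzyme of breakdown in saline striatum (171.8 FPKM), cortex (183.1) and cerebellum (147.6).

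The genes most like each member over the 47 libraries, by Pearson r of log2(FPKM + 1) among 14215 genes, give a description of shared patterns, since the libraries share regions. The highest were Bbox1 for Maoa (0.961), Pld1 for Maob (0.926), Srebf1 for Aldh2 (0.944) and Adcy5 for Slc22a3 (0.971). They were Lrig1 for Slc29a4 (0.959), Ctss for Fmo1 (0.908), BC026585 for Cyp2d22 (0.942) and Txnip for Fmo2 (0.719). With the mean of each region subtracted, the highest were Tsc22d3 (0.791) and Pdk4 (0.789) for Fmo2, Anks1 and Fgfr3 (0.747 each) for Aldh2, Serinc3 (0.731) for Maob, Cd81 (0.727) for Cyp2d22, Rdh5 (0.698) for Slc29a4, Golim4 (0.686) for Fmo1, Ino80d (0.654) for Maoa and Gbx2 (0.553) for Slc22a3. Tsc22d3 and Pdk4 are on the list of glucocorticoid-induced genes given above. Among the members themselves the highest r over the 47 libraries were 0.903 for Slc29a4 with Cyp2d22 and 0.864 for Maob with Fmo1.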

How the data were processed

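RNA-seq of 4 regions from 12 mice was analysed. The authors deposited 1 table of FPKM. Their methods name Tophat2, Cufflinks, RSEM and DESeq, whereas the processing notes of the submitters name HISAT2 (version 2.1), HTSeq (version 0.11) and build mm9. The sources used here do not state which of them produced the values. Columns were assigned to groups by name, and libraries to mice by the start of the name, because the replicate numbers of the labels name no mouse. The 27 gene names turned into dates were left out. The members, lists and tests were chosen with earlier results of these data known.

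The tests ran on log2(FPKM + 1) in limma (version 3.58.1, R version 4.3.3), with an intensity trend, on genes with a mean FPKM above 1 in the libraries of a fit, and Benjamini-Hochberg adjustment over all genes tested. A fold change on this scale understates the change of low genes. Regions of saline mice were compared with the mouse as a block. The mean response over regions used 1 value per mouse (3 regions for E29). The Maoa to Maob ratio and Slc22a3 under the filter were tested by two-sided exact permutation tests in Python (version 3.11.15). Methods were tested on simulated data. E29Stria was left out of the main fits. All 8 members were named, with the pathway genes of lowest p past the threshold, pathway genes of high level in saline mice and, for each member, the genes most like it. Alternatives were another pseudocount, filter, scaling, fit and library set.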

Additional observations from a re-analysis of the deposited data

Results flagged for a closer look

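In 8 of 96 groups of 4 libraries, 1 library was separated from the others by more than Dixon's 95% critical value, which chance gives in about 1 of 20 groups. E29Stria accounts for 3 of them: Maoa was 2.65 FPKM there against 7.1 to 7.71 in the other exercised striata, Maob 4.67 against 12.3 to 13.5 and Slc29a4 21.4 against 3.32 to 4.66. Maoa in exercised cortex was 6.56 in E26 against 5.43 to 5.51. Maob in MPTP cortex was 10.9 in M23 against 9.52 to 9.57, and Aldh2 in MPTP striatum was 56.2 in M23 against 54.9 to 55.1. Fmo1 in saline striatum was 3.65 in S4 against 2.92 to 3.01, and in MPTP striatum 2.58 in M21 against 4.12 to 4.26.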

How the results depend on the processing

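Most reported counts of members called were 0, and 0 again was taken as the same count. The call of Fmo2 in the mean response to MPTP held in 6 of 12 fits that left out a mouse. Counts stayed within 1.5 times of the reported count in 201 of 207 other settings and in 320 of 339 fits leaving out a mouse. The exceptions outside the latter were 1 member (Slc22a3) between striatum and cortex with no filter, 1 (Fmo2) in SN for MPTP vs. saline with quantile normalization, 0 for the mean response to MPTP with E29Stria, and 1 (Fmo2) for MPTP vs. saline in SN, striatum and cerebellum in fits of the 2 groups alone. With E29Stria in the fit, Maob for MPTP + EX vs. saline in striatum turned from 0.24 to −0.0776, where neither value passed. Leaving out a mouse gave counts of 0 to 1 for MPTP vs. saline in SN, striatum and cerebellum, for MPTP + EX vs. MPTP in cerebellum, for MPTP + EX vs. saline in SN and cortex, for all 3 mean responses and for the SN minus cortex difference, 3 to 5 for SN vs. striatum and 0 to 2 for striatum vs. cortex.

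Ranges of the log2 ratio of Maoa to Maob when 1 library was left out crossed 0 in several comparisons: −0.1814 to 0.0284 for MPTP vs. saline in striatum, −0.0545 to 0.1066 in cortex and −0.203 to 0.0006 in cerebellum, −0.1391 to 0.0080 for MPTP + EX vs. MPTP in striatum and −0.0194 to 0.1842 in cerebellum, and −0.0814 to 0.0367 for MPTP + EX vs. saline in cerebellum. Slc22a3, in alternatives chosen after the data were seen, crossed 0 for MPTP vs. saline in SN (−0.1613 to 0.0750), MPTP + EX vs. saline in SN (−0.0265 to 0.1691) and MPTP + EX vs. MPTP in cortex (−0.122 to 0.0995). None of these had passed a test. The cause was not tested.

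No paired analysis was possible for treatments because they used different mice and the columns carry mouse names, not the replicate numbers of the labels. Between regions, dropping the replicate block gave 5, 6, 4, 0, 6 and 4 members for SN vs. striatum, SN vs. cortex, SN vs. cerebellum, striatum vs. cortex, striatum vs. cerebellum and cortex vs. cerebellum. The sixth member in striatum vs. cerebellum was Aldh2. All-gene counts moved more: MPTP vs. saline in SN gave 44 to 161 genes against 86, MPTP + EX vs. saline in SN 55 to 538 against 138, and the mean response to MPTP 0 to 138 against 70. Read depth is unknown, so no counting error can be given for members near 1 FPKM, such as Slc22a3 and Fmo2.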
